A study of Mus musculus with 6 samples.

Results

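Receptor tyrosine kinases other than Ret, the receptor for GDNF, were followed in ureteric bud cells of the mouse kidney at E15.5. The 51 genes were chosen by name, as the ErbB, FGF, Met, Ror, discoidin domain, Eph, PDGF, VEGF, Tie, TAM, Trk and smaller receptor classes. Of the 19296 genes measured, 50 were members, and Ephb2 was not analysed here. RNA of YFP-positive cells sorted from trypsin-dissociated kidneys was hybridised to Affymetrix whole-transcript arrays, 3 for control cells and 3 for Dicer mutant cells. The mutant genotype was Dicerc/-; Hoxb7Cre; Rosa26YFP. It joins a conditional Dicer allele, a second allele written as "-", a Cre transgene driven by Hoxb7 regulatory sequence in the ureteric epithelium, and a YFP reporter that Cre switches on. The control genotype was given as wild type, without naming Hoxb7Cre or Rosa26YFP, although the sort on YFP is described for kidneys of both groups and needs a reporter in the control cells too. Both groups came from mixed-strain mice. The labels call the replicates biological without saying how many embryos each one holds, so p-values here reflect only how these 6 samples vary.

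Receptor tyrosine kinases are single-pass membrane proteins whose extracellular part binds a growth factor, an ephrin or collagen, and whose intracellular kinase then phosphorylates the receptor and its adaptors. The signal runs through Ras and ERK, PI3 kinase and phospholipase C gamma, and is damped by Sprouty proteins, ubiquitin ligases and phosphatases. In the ureteric bud, the epithelium that branches into the collecting ducts, Ret drives branching together with FGF receptors, and ErbB and Met signalling also act on the growing epithelium. Dicer cuts precursor hairpins into mature miRNAs, which repress many messenger RNAs, and the comparison asked which transcripts differed when Dicer was lost from these cells.

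All levels are log2 RMA signals, in which a difference of 1 is a 2-fold difference in signal. Array medians ran from 7.47 to 7.54 over 23309 probe sets. Dicer1 itself was 10.31 ± 0.063 in control and 9.72 ± 0.079 in mutant cells (SD, n = 3 each), which puts the mutant signal at 66.3% of control (limma, adjusted p = 0.0005). Exact permutation of the 6 arrays, two-sided, gave p = 0.1, the smallest that 3 against 3 samples allow. Whether its probes lie in the deleted part is not known here. All 14 ureteric bud markers examined, among them Ret, Gata3 and Cdh1, lay above the median of all probe sets, 7.51, on average over the 6 arrays. Of these, 7 fell and 1 (Wnt9b) rose in the mutant cells (limma, adjusted p under 0.05). That is 57.1% of them, against 39.6% of all genes above that median. Of the markers of other cell types, 1 of 8 endothelial, 3 of 9 stromal, 0 of 7 macrophage and blood, and 3 of 7 cap mesenchyme genes lay above that median. The cap mesenchyme list averaged 6.91 to 7.05 on the control arrays and 7.35 to 7.39 on the mutant arrays, but the median log2 fold change of its 7 genes was -0.05. Six2 rose by 3.29 on the log2 scale and Sall1 by 0.30, Osr1 fell by 0.67, and the other 4 genes did not pass. The part of such RNA in the receptor values was not tested. Of 5 neuron and Schwann cell genes, Tubb3 rose and 4 did not pass. In such bulk samples fewer cells of a type and less RNA per cell cannot be told apart.

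Of the 50 receptors, 12 changed, 7 upward and 5 downward. Erbb4, Axl, Ddr1, Ephb4, Mertk, Kit and Ephb6 were higher in mutant cells, and Ror1, Ephb3, Fgfr3, Erbb2 and Fgfr2 were lower (limma, Benjamini-Hochberg adjusted p under 0.05). The 12 are 24.0% of the receptors, while 25.8% of all genes tested were called, so the receptors changed about as often as other genes. In single directions, 11.8% of all genes were called higher and 13.9% lower. That balance turned with the scaling: higher genes made up 45.9% of all calls here and 54.6% with each array centred on its median. With that centring 9 receptors were called higher and 4 lower, beside 2696 higher and 2241 lower genes in all. The median log2 fold change was -0.02 over the receptors and -0.05 over all genes. Of the 26 receptors above the median brightness 11 were called, against 39.6% of all genes in that range. Among the 24 dimmer ones 1 was called, Fgfr3, against 11.9% of all dimmer genes. A change of at least 2-fold was found for Ror1 alone, and Ror1, Ephb3, Erbb4 and Axl were past 1.5-fold. The arrays of the groups did not overlap for 20 receptors, 11 higher and 9 lower, and such separation was seen for 42.5% of all genes. Without control replicate 3, 11 receptors were called lower and 6 higher. Without control replicate 1, mutant replicate 1 or mutant replicate 2 in turn, the count of lower receptors was 3.

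**Figure D1:**
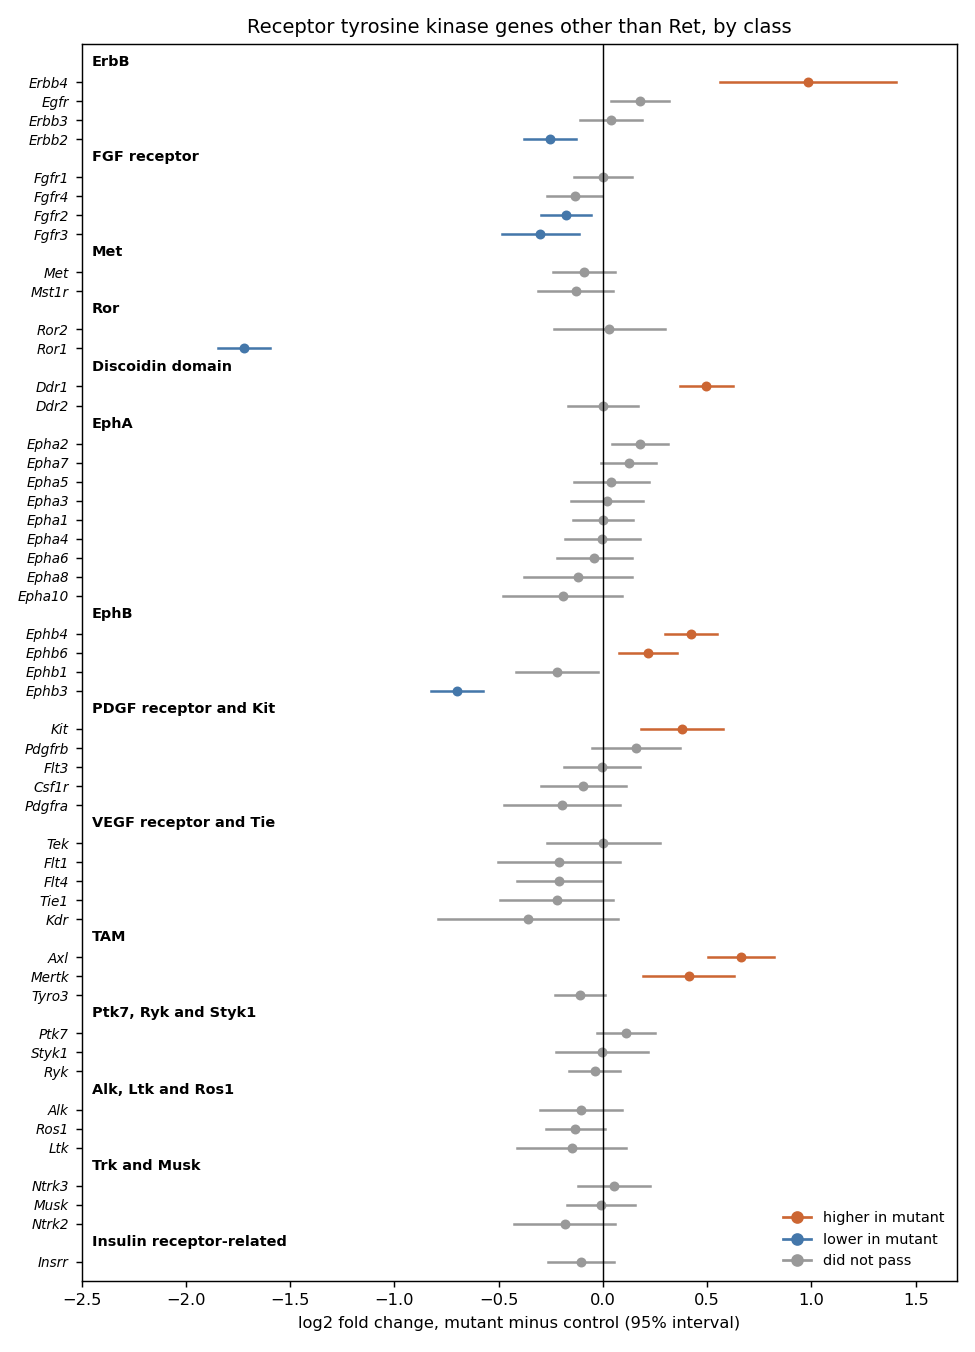
Log2 fold change, mutant minus control, of the 50 measured receptor genes grouped by class; points are estimates of the fit over all genes and lines are 95% intervals. Ror1 stands alone at -1.72, while Erbb4, Axl and Ddr1 lie farthest to the right at 0.98, 0.66 and 0.50.

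Ror1 showed the largest change of any receptor and the seventh-lowest fold change of all 19296 genes (rank 7). It encodes a receptor of Wnt5a with a cysteine-rich extracellular domain. Its control arrays read 10.46, 10.55 and 10.50 and its mutant arrays 8.78, 8.77 and 8.80. The groups were far apart, and the mutant arrays lay within a few hundredths of each other (SD 0.012). It fell by 1.72 ± 0.053 (standard error) on the log2 scale, a signal 3.30-fold lower (limma, adjusted p = 3.29e-06). Ror2, its paralog and also a Wnt5a receptor, read 9.75, 9.38 and 9.42 in control and 9.38, 9.67 and 9.59 in mutant cells. Those arrays overlapped, and the log2 fold change of 0.03 had a 95% interval of -0.23 to 0.30 (limma, adjusted p = 0.867). Within each array the log2 ratio of Ror1 to Ror2, from which array scaling cancels, dropped by 1.75 from control to mutant. Wnt5a, the ligand, fell too: its control arrays read 9.41, 9.29 and 9.28 and its mutant arrays 8.43, 8.46 and 8.41. That is a log2 fold change of -0.90 (limma, adjusted p = 5.89e-05), with no overlap between groups.

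The promoter windows of Ror1 and Erbb4, the receptors with the largest fall and the largest rise, are shown to set their base composition side by side. Each runs from 250 bases before to 50 bases after the annotated RefSeq start (GRCm38.p6), 5′ to 3′ on the gene's strand, and capitals mark GC boxes, GGGCGG searched on both strands.
Ror1, chr4:100095541-100095840, + strand: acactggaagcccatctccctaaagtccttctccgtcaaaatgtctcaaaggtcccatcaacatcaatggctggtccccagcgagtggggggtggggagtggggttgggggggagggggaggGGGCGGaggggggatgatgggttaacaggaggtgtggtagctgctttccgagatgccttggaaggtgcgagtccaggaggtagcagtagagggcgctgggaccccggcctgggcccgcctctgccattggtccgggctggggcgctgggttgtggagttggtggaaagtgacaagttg
Erbb4, chr1:69108010-69108309, - strand: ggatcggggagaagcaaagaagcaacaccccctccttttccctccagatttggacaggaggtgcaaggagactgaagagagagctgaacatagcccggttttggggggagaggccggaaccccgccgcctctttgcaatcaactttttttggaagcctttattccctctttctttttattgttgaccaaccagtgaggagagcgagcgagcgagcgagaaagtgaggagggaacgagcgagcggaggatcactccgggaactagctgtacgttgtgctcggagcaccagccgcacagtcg
The Ror1 window was 62.3% G and C with 10 CpG dinucleotides and 1 GC box, and the Erbb4 window 55.3% with 17 CpG dinucleotides and no GC box. Neither held the TATA box letters TATAAA on either strand. Promoter entries were found for 44 of the 51 receptor genes, with 51 windows in all because some genes have several starts. A GC box was present in 70.6% of those 51 windows and in 35.7% of all 32851 windows of the table, and TATAAA in 5.9% and 13.6%. These motif shares were not adjusted for base composition. The median was 64.0% G and C and 19 CpG dinucleotides among receptor windows, and 52.7% and 7 among all. Both printed windows thus held more CpG dinucleotides than the median of all windows and fewer than the median of the receptor windows.

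**Figure D2:**
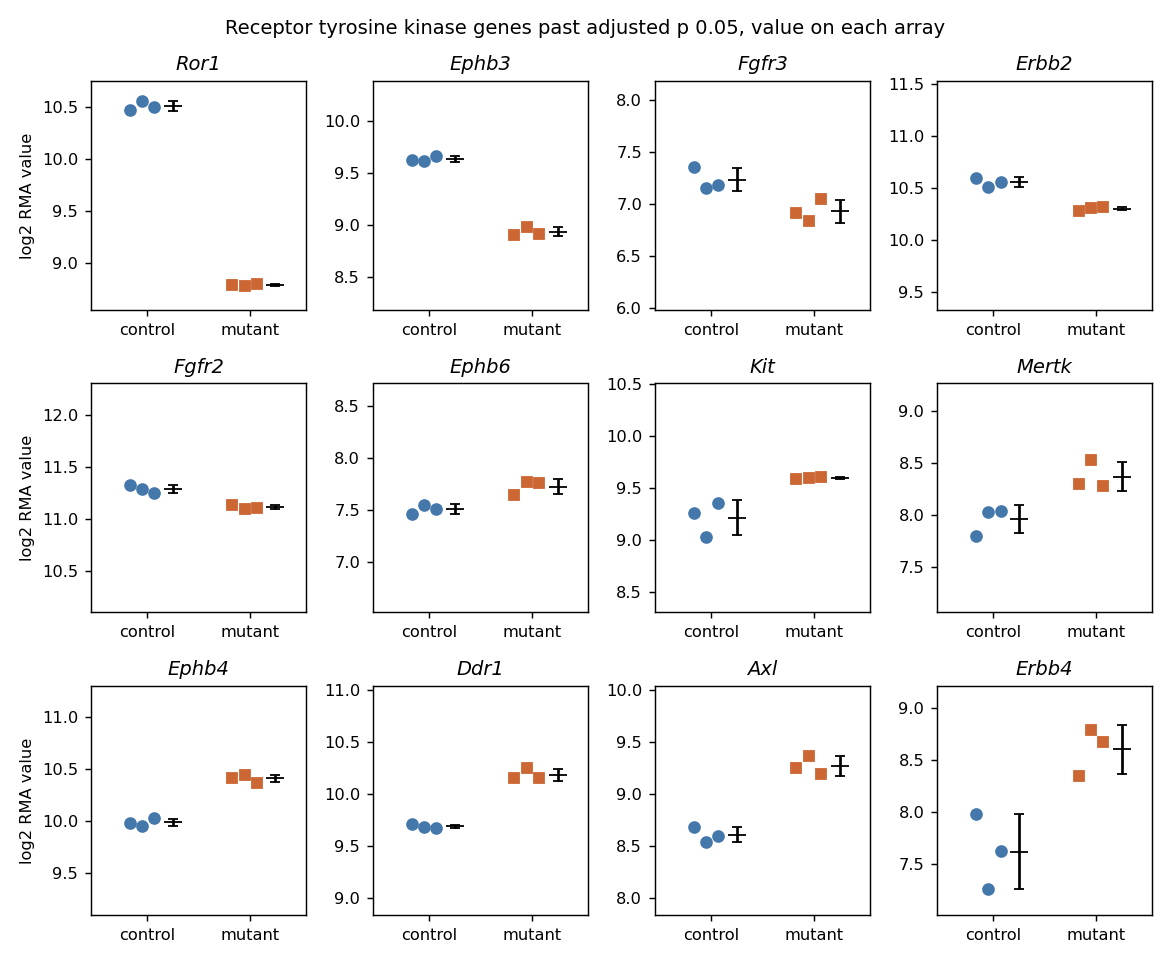
Log2 RMA value of each of the 12 receptors past an adjusted p of 0.05 on each array, ordered from the largest fall to the largest rise; circles are control and squares mutant arrays, black bars the mean ± SD (n = 3), and each panel spans the same number of log2 units. The 3 mutant arrays of Ror1 lie between 8.77 and 8.80, below its control arrays at 10.46 to 10.55, and Erbb4 shows the widest spread within a group.

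The ErbB receptors bind EGF-like growth factors and neuregulins and act as pairs. They moved in different directions: of the 4, Erbb4 rose, Erbb2 fell and 2 did not pass. Erbb4, a receptor for neuregulins, betacellulin and heparin-binding EGF, read 7.98, 7.26 and 7.62 on the control and 8.34, 8.79 and 8.68 on the mutant arrays. Every mutant array was above every control array, although the spread within groups was wide. It rose by 0.98 ± 0.183 (standard error) on the log2 scale, or 1.98-fold (limma, adjusted p = 0.00583). Leaving out each array in turn gave 0.80 to 1.16. Erbb2, which has no ligand of its own and serves as the shared partner, went from 10.56 ± 0.047 to 10.30 ± 0.018 (SD, n = 3 each), so it fell by 0.25 on the log2 scale (limma, adjusted p = 0.0103). Egfr had a log2 fold change of 0.18 (limma, adjusted p = 0.0656) with no overlap between groups. It passed under 5 of 13 alternatives: median centring, dim genes left out, an intensity trend, array weights, and without mutant replicate 2, with adjusted p from 0.0204 to 0.0486 (limma). Erbb3, whose own kinase is nearly inactive, had one of 0.04. Within arrays the ratio of Erbb4 to Erbb2 rose by 1.24 log2 units and that of Erbb4 to Egfr by 0.81.

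Of the 10 measured ligands of these receptors, 5 fell and 0 rose, where 13.9% of all genes were called lower and 11.8% higher. Nrg3, a neuregulin that binds ErbB4, dropped from 8.44 ± 0.10 to 7.01 ± 0.068 (SD, n = 3 each), that is, by 1.43 on the log2 scale and 2.70-fold (limma, adjusted p = 2.23e-05). Nrg1, a ligand of ErbB3 and ErbB4, had a log2 fold change of -0.92 (limma, adjusted p = 0.000658), betacellulin, Btc, one of -0.74, Tgfa -0.24 and Hbegf -0.23. Nrg2, Nrg4, Ereg and Epgn, at -0.08, -0.12, 0.02 and 0.05, did not pass. The rise of the Erbb4 transcript thus stood beside lower transcripts of Nrg3, Nrg1, Btc and Hbegf, which encode ligands that bind it.

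FGF receptors carry the FGF signals that act on the bud beside GDNF, and Fgfr2 is the member best known for the ureteric epithelium. Of 4 members, 2 fell by small amounts and 2 did not pass. Fgfr3 read 7.36, 7.16 and 7.18 on the control and 6.91, 6.83 and 7.05 on the mutant arrays. The nearest arrays of the groups were 7.16 and 7.05, and the log2 fold change was -0.30 (limma, adjusted p = 0.0283). Fgfr2 went from 11.29 ± 0.038 to 11.11 ± 0.022 (SD, n = 3 each) and so fell by 0.18 on the log2 scale (limma, adjusted p = 0.0413). Both calls were sensitive to single arrays: Fgfr2 did not pass without control replicate 1 or 2 or without any 1 of the mutant replicates, nor after quantile normalization or median centring. Fgfr3 did not pass without control replicate 1, mutant replicate 1 or mutant replicate 2. The highest adjusted p over all alternatives was 0.117 for Fgfr2 and 0.0978 for Fgfr3. Fgfr1 had a log2 fold change of 0.00 with a 95% interval of -0.14 to 0.14, and Fgfr4 one of -0.14 (limma, adjusted p = 0.129). Of 9 measured FGF ligands, 3 fell and 6 did not pass, where 13.9% of all genes were called lower. The 3 were Fgf1, Fgf9 and Fgf18, with log2 fold changes of -0.40, -0.36 and -0.30.

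The TAM receptors Axl, Mertk and Tyro3 are activated by Gas6 and protein S and are known for clearing dying cells. Axl and Mertk rose and Tyro3 did not pass. Axl read 8.68, 8.54 and 8.60 in control and 9.25, 9.37 and 9.19 in mutant cells. The groups did not overlap, and the log2 fold change of 0.66 had a standard error of 0.069 (1.58-fold; limma, adjusted p = 0.000423). Mertk read 7.81, 8.03 and 8.05 on the control and 8.30, 8.54 and 8.28 on the mutant arrays. It was higher on all mutant arrays, with a log2 fold change of 0.41 (limma, adjusted p = 0.0148). Tyro3 had a log2 fold change of -0.11 with a 95% interval of -0.23 to 0.01. Within arrays the ratio to Tyro3 rose by 0.77 log2 units for Axl and by 0.52 for Mertk.

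The ligands of the TAM class moved in opposite directions. Pros1, the gene of protein S, read 7.09, 7.19 and 7.33 in control and 8.05, 8.14 and 8.01 in mutant cells, a log2 fold change of 0.86 (limma, adjusted p = 0.000199). Gas6 read 7.51, 7.47 and 7.69 in control and 7.07, 7.18 and 7.23 in mutant cells, a log2 fold change of -0.40 (limma, adjusted p = 0.00689). Neither gene's groups overlapped. Macrophages also express Axl and Mertk. Of 7 macrophage and blood markers 0 rose and 1, Ptprc, fell, and the list averaged 5.69 to 5.90 on the control and 5.63 to 5.74 on the mutant arrays.

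**Figure D3:**
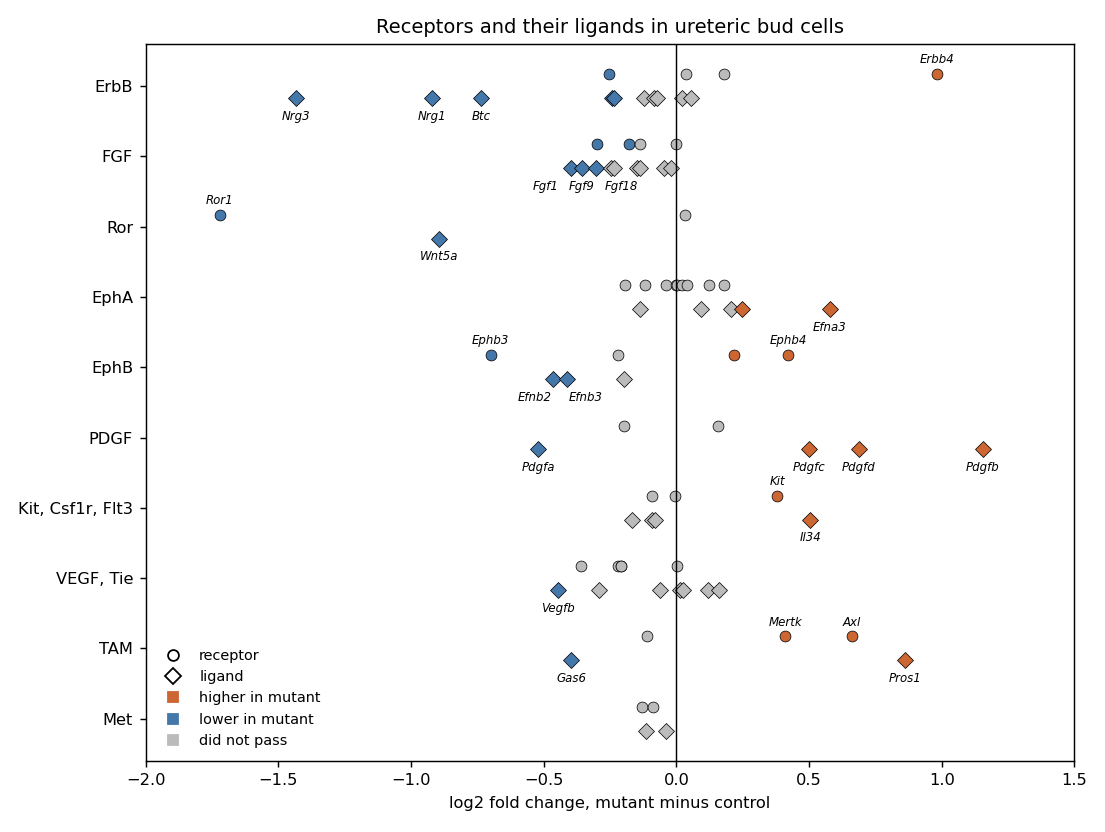
Log2 fold change, mutant minus control, of receptors (circles, upper line of each class) and of their ligands (diamonds, lower line); colour marks genes past an adjusted p of 0.05. Ror1 and Wnt5a both lie to the left, Erbb4 lies opposite Nrg3, Nrg1 and Btc, and among PDGF ligands Pdgfb at 1.15 lies opposite Pdgfa at -0.52.

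Ddr1 and Ddr2 bind collagen, Ddr1 in epithelia, where it contacts the basement membrane, and Ddr2 mainly in mesenchyme. Ddr1 read 9.71, 9.69 and 9.68 on the control and 10.15, 10.26 and 10.16 on the mutant arrays. The gap between groups was many times the spread within them, with a log2 fold change of 0.50 and a standard error of 0.055 (1.41-fold; limma, adjusted p = 0.000548). Ddr2 was dim, at 5.64 in both groups, and the 95% interval of its log2 fold change was -0.17 to 0.17.

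Eph receptors bind ephrins on neighbouring cells and guide sorting and boundaries between them. The class B genes moved both ways, while 0 of the 9 class A genes passed in either direction. Ephb3 read 9.62, 9.61 and 9.66 in control and 8.91, 8.98 and 8.91 in mutant cells. No array overlapped, and the signal was 1.63-fold lower, a log2 fold change of -0.70 (limma, adjusted p = 0.000127). Ephb4, the receptor best known for pairing with ephrin-B2, read 9.98, 9.95 and 10.03 in control and 10.41, 10.44 and 10.37 in mutant cells. It moved the opposite way, with a log2 fold change of 0.42 (limma, adjusted p = 0.00105). Within arrays the ratio of Ephb4 to Ephb3 rose by 1.12 log2 units, and its SD was 0.013 among control and 0.029 among mutant arrays. Ephb6, which has no kinase activity, had a log2 fold change of 0.22 (limma, adjusted p = 0.0312). It did not pass without control replicate 1 or 3, without mutant replicate 2 or 3, or with array weights. Ephb1 had a log2 fold change of -0.22 (limma, adjusted p = 0.0988), and a second probe set of it one of 0.07.

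Among the B ephrins, Efnb2 had a log2 fold change of -0.47 (limma, adjusted p = 0.000712) and Efnb3 of -0.41 (limma, adjusted p = 0.00683), while Efnb1, at -0.20, did not pass. Efnb2 read 11.05, 11.04 and 11.00 in control and 10.62, 10.56 and 10.52 in mutant cells, so it fell while Ephb4 rose. In class A, Epha2 had the smallest p. It read 9.10, 9.04 and 9.11 in control and 9.29, 9.31 and 9.18 in mutant cells. These arrays did not overlap, and the log2 fold change was 0.18 (limma, adjusted p = 0.0600, and under 0.05 with median centring, with dim genes left out, with array weights and with an intensity trend). Epha1 and Epha4 had log2 fold changes of 0.00 and -0.00 with 95% intervals of -0.14 to 0.15 and -0.18 to 0.18. Epha7 was at 0.12, and Epha3, Epha5, Epha6, Epha8 and Epha10, all below the median of all probe sets, ranged from -0.19 to 0.04. Of the 5 measured A ephrins, Efna3 (0.58) and Efna2 (0.25) rose and 3 did not pass, where 11.8% of all genes were called higher.

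Of the PDGF receptor and Kit class, 1 of 5 rose. Kit, the receptor of stem cell factor and a gene also found in intercalated cells of the collecting duct, read 9.26, 9.03 and 9.35 on the control and 9.58, 9.59 and 9.60 on the mutant arrays. The mutant arrays lay close together above all control arrays, with a log2 fold change of 0.38 (limma, adjusted p = 0.0131). Kitl, its ligand, did not pass, at -0.17. Of 8 intercalated cell markers 0 passed, and 2 lay above the median of all probe sets. Their list averaged 6.72 to 6.99 on the control and 6.68 to 6.78 on the mutant arrays. The part of intercalated cell RNA in the Kit values was not tested. Pdgfra and Pdgfrb, receptors of stromal cells, had log2 fold changes of -0.20 and 0.16 and were dimmer than the median probe set, as was Csf1r at -0.09 and Flt3 at -0.00. None of these 4 passed. The stromal list averaged 6.49 to 6.73 on the control and 6.49 to 6.60 on the mutant arrays. Of its 9 genes, Acta2 fell, with a log2 fold change of -0.72 (limma, adjusted p = 0.0168), and 8 did not pass.

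Ligands of the PDGF receptors changed in all 4 genes, 3 upward and 1 downward, where 25.8% of all genes were called. Pdgfb read 7.95, 7.56 and 7.46 in control and 8.71, 8.89 and 8.84 in mutant cells, a 2.23-fold rise (limma, adjusted p = 0.00046). Pdgfc had a log2 fold change of 0.50 (limma, adjusted p = 0.000369) and Pdgfd of 0.69 (limma, adjusted p = 0.00147), whereas Pdgfa fell, with one of -0.52 (limma, adjusted p = 0.00223). Il34, a second ligand of Csf1r, rose by 0.51 on the log2 scale, and Csf1, at -0.08, did not pass.

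The VEGF and Tie receptors mark endothelium, and all 5 were dimmer than the median probe set. None passed over the 6 arrays. Flt4, with the smallest p, read 5.82, 5.96 and 5.67 in control and 5.49, 5.64 and 5.69 in mutant cells. The ranges overlapped at control replicate 3, and the log2 fold change was -0.21 (limma, adjusted p = 0.121). Kdr read 6.64, 6.66 and 6.14 in control and 5.83, 6.07 and 6.46 in mutant cells, so 2 control arrays were high and the third lay within the mutant range. Its log2 fold change was -0.36 (limma, adjusted p = 0.203). Flt1 and Tie1 were at -0.21 and -0.22, and Tek at 0.00. Without control replicate 3, Flt1, Flt4, Kdr and Tie1 were called lower, with log2 fold changes of -0.37, -0.28, -0.53 and -0.34 (limma, adjusted p = 0.00796, 0.0425, 0.0487 and 0.0312), as were Epha10 and Ltk. Endothelial markers moved with these arrays: the list of 8 averaged 6.97, 7.00 and 6.64 on control replicates 1 to 3, and 6.52, 6.62 and 6.78 on mutant replicates 1 to 3. Of the 8, Plvap fell and Erg rose. The intercalated cell list was also lowest on control replicate 3 among the control arrays, at 6.99, 6.83 and 6.72 on replicates 1 to 3. So were the macrophage and blood list (5.84, 5.90 and 5.69) and the cap mesenchyme list (7.05, 6.92 and 6.91). The stromal, neuron and Schwann cell, and ureteric bud lists were not. Without control replicate 3, 2973 genes in all were called lower, against 2690 over the 6 arrays. The part of endothelial RNA in the receptor values was not tested.

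**Figure D4:**
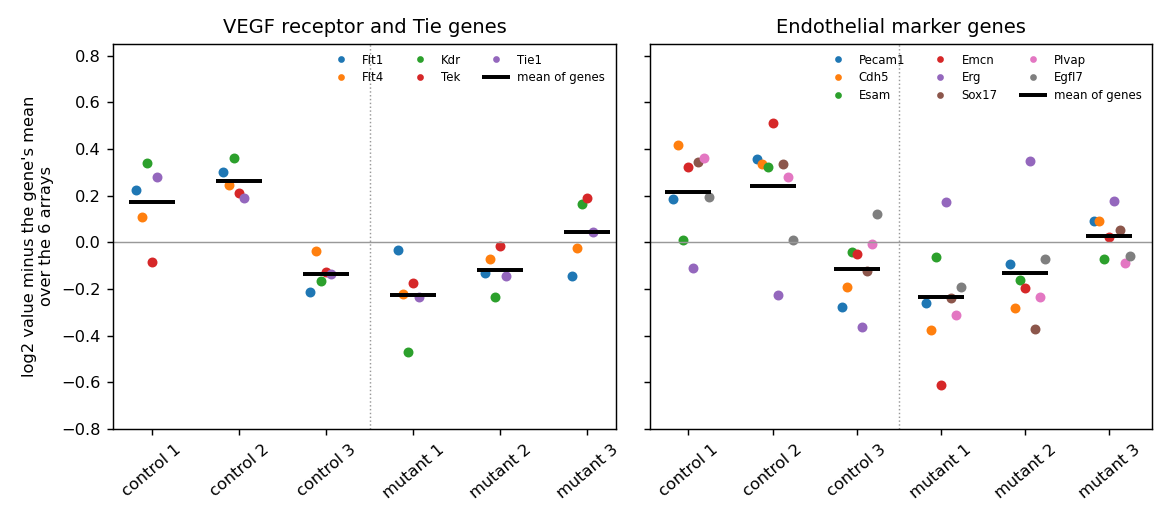
Log2 value on each array, less the gene's mean over the 6 arrays, of the 5 VEGF and Tie receptor genes (left) and the 8 endothelial markers (right); points are genes and black bars the mean over genes. In both panels the means of control replicates 1 and 2 lie above that of control replicate 3, which lies among the mutant means.

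The remaining classes held 0 changed members of 12. Met and Mst1r, the receptors of HGF and of macrophage-stimulating protein, had log2 fold changes of -0.09 (95% interval -0.24 to 0.06) and -0.13 (95% interval -0.31 to 0.05). Mst1r read 6.30, 6.20 and 6.08 in control and 6.14, 5.95 and 6.10 in mutant cells, with overlap. Ptk7, a Wnt and planar polarity co-receptor with an inactive kinase, read 10.16, 10.07 and 10.15 in control and 10.22, 10.31 and 10.18 in mutant cells. It did not overlap, but its log2 fold change of 0.11 did not pass (limma, adjusted p = 0.225). Ryk, another Wnt receptor of that kind, was at -0.04 and Styk1 at -0.01. So of the Wnt-binding receptor kinases Ror1, Ror2, Ptk7 and Ryk, the first was the one called.

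Ros1 read 11.23, 11.23 and 11.18 in control and 11.02, 11.18 and 11.05 in mutant cells, with a log2 fold change of -0.13 (limma, adjusted p = 0.162). Its groups were apart by less than 0.01 at their nearest arrays. Alk and Ltk were at -0.11 and -0.15. The neurotrophin receptors Ntrk2 and Ntrk3 and the agrin-pathway receptor Musk, all below the median of all probe sets, were at -0.18, 0.05 and -0.01. Ntrk2 read 5.99, 5.68 and 5.57 in control and 5.50, 5.59 and 5.60 in mutant cells, and these overlapped. Insrr, an alkali-sensing relative of the insulin receptor, read 6.08, 6.14 and 5.99 in control and 5.98, 5.87 and 6.04 in mutant cells, with overlap and a log2 fold change of -0.11.

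Several of these receptors have been described in other cells as targets of miRNAs that Dicer makes: Axl and Met of miR-34a, Axl and Ddr1 of miR-199a-5p, Erbb2 and Erbb3 of miR-125a and miR-125b, and Erbb3 of miR-205. Their mature RefSeq sequences follow, 5′ to 3′, with the seed, bases 2 to 8, in capitals, since the seed pairs with the target. The miR-34a and miR-449a seeds are the same, as are those of the miR-125 pair. No receptor was paired with miR-449a here, and it is printed for its seed alone.
mmu-miR-34a-5p: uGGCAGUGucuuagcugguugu
mmu-miR-449a-5p: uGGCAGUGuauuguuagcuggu
mmu-miR-199a-5p: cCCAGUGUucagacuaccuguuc
mmu-miR-125a-5p: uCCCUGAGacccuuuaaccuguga
mmu-miR-125b-5p: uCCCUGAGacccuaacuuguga
mmu-miR-205-5p: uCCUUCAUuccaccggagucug
Set beside these pairs, Axl (0.66) and Ddr1 (0.50) rose, Met (-0.09) and Erbb3 (0.04) did not pass, and Erbb2 (-0.25) fell, on the log2 fold change scale. The pairs were recalled after the values were known, and neither mature miRNAs nor target sites were examined here. Other receptors were not looked at in this way.

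Of the 51 measured ligand genes of all classes, 7 rose and 15 fell (43.1% called, against 25.8% of all genes), with a median log2 fold change of -0.12. Downstream of the receptors, 5 of 24 measured adaptors and effectors rose, 4 fell and 15 did not pass (37.5% called), and all 24 belonged to the brighter genes, 39.6% of which were called. Plcg1, the phospholipase recruited to activated receptors, rose from 9.15 ± 0.089 to 10.06 ± 0.056 (SD, n = 3 each), 1.87-fold (limma, adjusted p = 0.000101). Sos1 and Sos2, which load Ras with GTP, rose with log2 fold changes of 0.42 and 0.50. The docking proteins Gab1 and Gab2 parted, at 0.34 and -0.47, and the ERK kinase gene Map2k2 fell, at -0.40. For Sos1, Sos2, Gab1, Gab2 and Map2k2 the highest adjusted p was 0.00554 (limma). Akt1, Src, Crkl and Pik3r1 had log2 fold changes between 0.01 and 0.02 and did not pass.

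Of 28 feedback inhibitors, 8 rose, 5 fell and 15 did not pass (46.4% called, with 27 of the 28 above the median brightness). Those that fell were Lrig1, which lowers ErbB receptor levels, at -0.71, the Sprouty genes Spry4 (-0.57), Spry2 (-0.44) and Spry1 (-0.29), and the ERK phosphatase Dusp6 (-0.44). Those that rose included Il17rd, an inhibitor of FGF signalling, from 8.51 ± 0.057 to 9.32 ± 0.093 (SD, n = 3 each), 1.75-fold (limma, adjusted p = 0.000158). The receptor phosphatase Ptprj (0.56), Lrig3 (0.56), Lrig2 (0.46), the Ras inhibitors Rasa1 (0.43) and Nf1 (0.23), and the ubiquitin ligases Cbl (0.29) and Cblb (0.28) rose too. The 3 Lrig genes therefore moved in different directions, as the ErbB receptors did, while the 3 Sprouty genes above the median brightness fell. The fourth, Spry3, was dimmer and had a log2 fold change of 0.03. Spred1, Spred2 and Errfi1, an inhibitor of ErbB kinases, were at 0.04, -0.07 and 0.01 and did not pass.

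**Figure D5:**
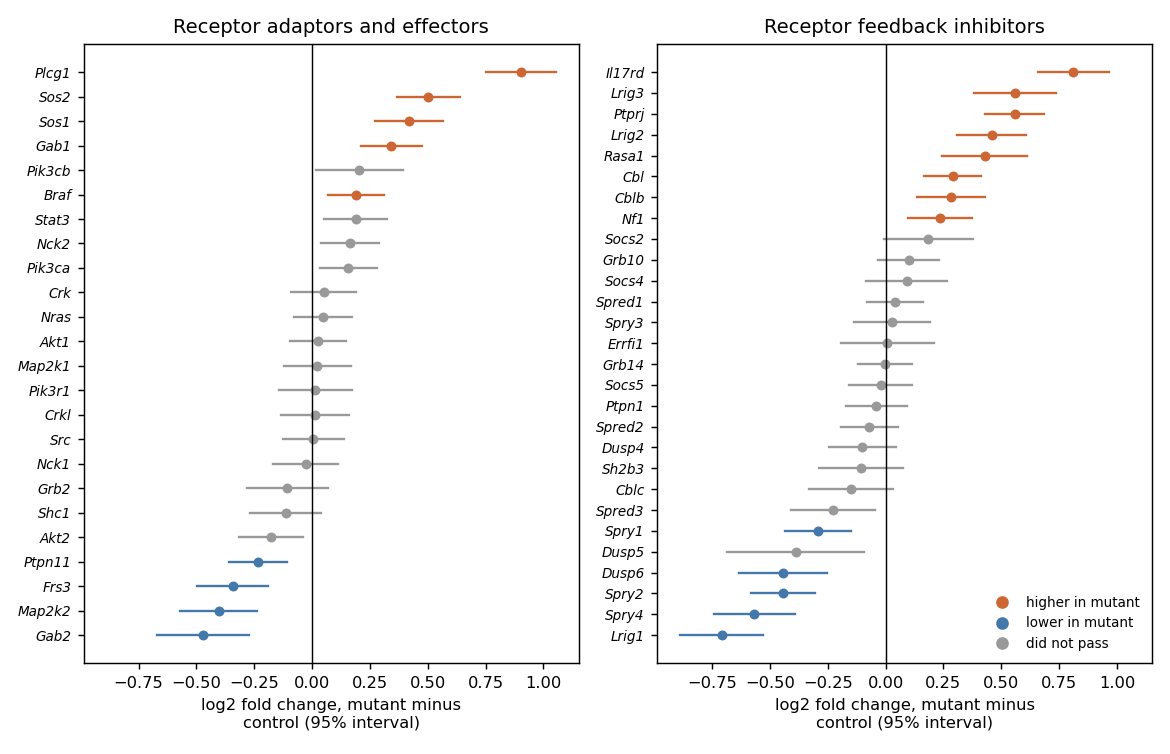
Log2 fold change, mutant minus control, with 95% intervals for 24 adaptors and effectors (left) and 28 feedback inhibitors (right); colour marks genes past an adjusted p of 0.05. Plcg1 at 0.90 and Il17rd at 0.81 lie highest, and Gab2 at -0.47 and Lrig1 at -0.71 lowest.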

How the data were processed

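The values deposited by the authors are log2 RMA expression values, 1 per probe set and array. The submitters' processing notes name RMA and the affy package. Neither software versions nor a genome build or filter is recorded there. RMA forces arrays to a common distribution, so a shift shared by most transcripts is lost, and differences between dim signals come out too small. There is no detection call, so "above" or "below the median" (7.51 over all probe sets) describes brightness only. Of 23309 probe sets, 20728 had 1 gene symbol. Per gene the brightest was kept, leaving 19296 genes. All 6 arrays were fitted by limma 3.58.1 (R 4.3.3; lmFit, then eBayes), with no covariate beside genotype. Two-sided p-values received a Benjamini-Hochberg adjustment across the 19296 genes, and an adjusted p under 0.05 counts as passed.

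Receptors, gene lists and tests were chosen with earlier results of these data known. Values on every array are given for receptors past the threshold with an absolute log2 fold change of at least 0.3 and, in other classes, for the member with the smallest p. Of each list, up to 6 genes past the threshold with the smallest p were to be named, together with ligands of the first receptors, and further list genes, Kdr and the ratios between receptors were chosen after their values were seen. The 10 ratios were tested with exact permutation tests, 9 of which gave p = 0.1 (0.11 adjusted over the ratios), the smallest possible, and Fgfr3 to Fgfr1 0.2. Vegfd, Alkal1 and Alkal2 were matched through older names. In simulated arrays of the same 19296 genes with 50 changed genes per size, the fit recovered 20% of log2 changes of 0.3, 60% of those of 0.5 and 100% of those of 1 and 2. It called 5 unchanged genes. Far fewer genes were changed there than the 25.8% called in these data. The adjustment was therefore stricter there, and these shares do not carry over to the receptors. The number of arrays limits the precision. Figures were drawn with matplotlib 3.10.9.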

Additional observations from a re-analysis of the deposited data

How the results depend on the processing

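Of the 12 called receptors, Erbb2, Erbb4, Ror1, Ddr1, Ephb3, Ephb4, Kit, Axl and Mertk passed under all 13 alternatives that kept the threshold: dropping each array in turn, adding a replicate block, array weights or an intensity trend with robust eBayes, averaging probe sets, leaving out dim genes, and rescaling by quantiles or by medians. The exceptions were Fgfr2, Fgfr3 and Ephb6, which lost their calls with the block among others. No called receptor changed sign. Whether the replicate numbers pair the arrays is not known here. Deviations of same-numbered arrays from their group means correlated at -0.23, -0.09 and -0.19, but 3 arrays per group are too few to decide it. With the replicate block 6 receptors were called higher and 3 lower, and 3603 genes in all. Leaving out each array in turn gave 6 to 7 higher and 3 to 11 lower receptors, 3460 to 5130 called genes, 1635 to 2157 higher and 1764 to 2973 lower genes. At an adjusted p of 0.01, 4 receptors were higher and 2 lower, with 2790 genes called, 1367 higher and 1423 lower. With dim genes left out, 14 adaptors and effectors were called in place of 9; fewer genes were tested there. Among receptors that did not pass, Egfr gained a call under 5 alternatives and Epha2 under 4. Fgfr4 gained one with dim genes left out and Ros1 with the intensity trend and robust eBayes. Epha10, Ltk, Flt1, Flt4, Kdr and Tie1 gained one without control replicate 3. A receptor that did not pass may still differ within the 95% interval of its own fold change.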
